A study of Mus musculus with 2 samples.

Results

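Replication-dependent histone genes encode the linker histone H1 and the core histones H2A, H2B, H3 and H4 that wrap newly copied DNA into nucleosomes. They lie in clusters, mostly lack introns, and give short mRNAs that end in a conserved stem-loop in place of a poly(A) tail. The stem-loop is bound by the protein Slbp, and the mRNAs are made mainly in S phase and degraded when DNA synthesis stops. Mature neutrophils no longer divide, whereas their precursors do.

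The genes were chosen by name and biotype, without use of their levels. All genes with a protein-coding transcript and a symbol that starts with Hist1h, Hist2h, Hist3h or Hist4h were taken, which gave 67 of 55536 annotated genes and 67 of 22028 protein-coding genes. The class was read from the symbol: 6 genes encode H1, 18 encode H2A, 18 encode H2B, 12 encode H3 and 13 encode H4. The Hist1 cluster on chromosome 13 holds 54 of them, the Hist2 cluster on chromosome 3 holds 10, the Hist3 cluster on chromosome 11 holds 2, and Hist4h4 lies alone on chromosome 6. The chromosome 13 genes occupy 4 stretches separated by over 100000 nt (mm10): 18 genes at chr13:21715763-21837530, 5 at chr13:22035164-22043676, 29 at chr13:23531050-23764406 and 2 at chr13:23933773-23934851.

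The study is total RNA-seq of neutrophils taken as primary cells from the spleen of adult male mice aged 65 days, hybrids of the strain B6CASTF1/J from a cross of C57BL/6 females with CAST Eij males. It holds 2 libraries, labelled biological replicates 1 and 2, with 300 ng of input RNA and ERCC spike-ins in both, and no treated or control group. Both libraries carry the same donor label, so their spread may be that of repeat samples of one source, and every p-value below compares these 2 libraries and not conditions. Total RNA-seq does not select poly(A) tails, so mRNAs that lack one can be read.

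The libraries held 18310100 and 18043000 expected counts in annotated genes (to 6 digits). The neutrophil markers were high, with a median over 10 genes of 2446 and 4160 TPM (a level per length of transcript and per library). Medians of the B cell, T cell, erythroid and stem or progenitor markers lay at or below 5.82 TPM in both libraries, and the 5 monocyte and macrophage markers had medians of 7.61 and 10.6 TPM. Of the 5 germ cell markers, 4 were at 0 in both libraries. Protein-coding genes took 33.0% of the TPM of all annotated genes in replicate 1 and 45.6% in replicate 2, so TPM of protein-coding genes is not on one scale in the 2 libraries. In bulk RNA, more cells that express a gene and more RNA per cell cannot be told apart.

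The stem-loop is shown first because it is the known mark of these mRNAs and because its place bears on how much of an annotated transcript may be mature mRNA. Where the mRNAs of these libraries end was not tested. A stem of 6 pairs with a loop of 4 nt was searched by the known histone stem-loop consensus in the annotated transcripts, and 44 of the 67 genes held it. Outside these genes, 86 of 21834 protein-coding genes (0.394%) held a match. In the 44 genes the stem-loop began 21 to 58 nt after the stop codon, with a median of 31 nt. The 23 genes without a match included 13 whose annotated transcript has no sequence after the stop codon, so the search had nothing to read there. The other 10 have annotated sequence there without a match, from 1 nt in Hist1h2af to 2192 nt in Hist2h2be. The 1 nt of Hist1h2af and the 2 nt of Hist1h2ah are too short to hold a stem-loop. In Hist1h2bq and Hist1h2br the 823 nt belong to a minor transcript, while the main one of 381 nt has none. There were 6 versions of the 16 nt. Each is printed for 1 gene, 5′ to 3′ as DNA, with the stem-loop in capitals and 5 flanking bases on each side.
Hist1h1c: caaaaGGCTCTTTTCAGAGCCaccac
Hist1h3e: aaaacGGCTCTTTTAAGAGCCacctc
Hist2h2ac: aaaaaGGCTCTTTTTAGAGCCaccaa
Hist1h4d: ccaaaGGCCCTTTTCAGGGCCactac
Hist1h4i: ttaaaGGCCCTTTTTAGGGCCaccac
Hist1h4b: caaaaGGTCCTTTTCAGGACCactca
The first version stood in 26 genes of the H1, H2A, H2B and H3 classes and in no H4 gene. The version shown for Hist1h4d stood in 7 genes, all of them H4 genes. The version shown for Hist1h3e was found in 6 genes of the H1, H2B and H3 classes, those shown for Hist1h4i and Hist1h4b in 2 H4 genes each, and that of Hist2h2ac in 1 gene. All 11 H4 genes with a match therefore had a stem sequence that was not found in the other classes. Beyond the stem-loop, the annotated transcripts ran on for 3 nt (Hist1h2ap, Hist1h4m) to 4884 nt (Hist1h1d), and 22 of the 44 ran on for over 100 nt. The H1, H3 and H4 genes had the longer median extensions, of 996.5, 367.0 and 330.0 nt, against 35.0 nt for H2A and 42.0 nt for H2B.

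Proteins of the class members were far fewer than the genes. The 13 H4 genes encode 1 protein of 103 residues, the 12 H3 genes 2 proteins of 136 residues, the 18 H2A genes 9 proteins, the 18 H2B genes 11 and the 6 H1 genes 6. Coding sequences of different H4 genes were 85.4% to 100% identical, with a median of 93.9%. There were 5 pairs with identical coding sequence: Hist2h2aa1 and Hist2h2aa2, Hist1h2ao and Hist1h2ap, Hist1h2bq and Hist1h2br, Hist2h3c1 and Hist2h3c2, and Hist1h4m and Hist1h4n. The share of 100-nt stretches of a gene's transcripts found in no other annotated gene ran from 0% in Hist2h2aa2 and Hist2h3c1 to 100% in 7 genes (Hist1h1a, Hist1h1b, Hist1h1t, Hist1h2aa, Hist2h2be, Hist1h4d and Hist2h4). Its median was 99.6% for H1, 81.0% for H4, 63.6% for H2B, 50.3% for H3 and 35.5% for H2A. In 25 genes less than 50% of the stretches were unique, 11 of them H2A genes. Counts of these genes rest on how a program divides shared reads, and they are reported here as uncertain.

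Of the 67 genes, 62 had at least 1 TPM in both libraries, against 9528 of 22028 protein-coding genes. At least 10 TPM was reached by 57 and at least 100 TPM by 32. Among the 500 highest protein-coding genes of each library, 30 were histone genes in replicate 1 and 35 in replicate 2. The median histone gene stood at 89.97 TPM in replicate 1 and 147.28 TPM in replicate 2, while the median protein-coding gene stood at 0.33 and 0.40 TPM. Summed over the 67 genes, the level was 8844 TPM in replicate 1 and 15409 TPM in replicate 2. As a share of all protein-coding TPM this was 2.69% and 3.39% (mean 3.04% ± 0.494, SD, n = 2). As reads, which do not correct for the short length of these mRNAs, it was 0.542% and 0.819% of the expected counts of all annotated genes. Levels of single genes kept their order between the libraries, with a Spearman correlation of 0.974 over 64 genes not at 0 in both, a description over genes that share a library.

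**Figure D1:**
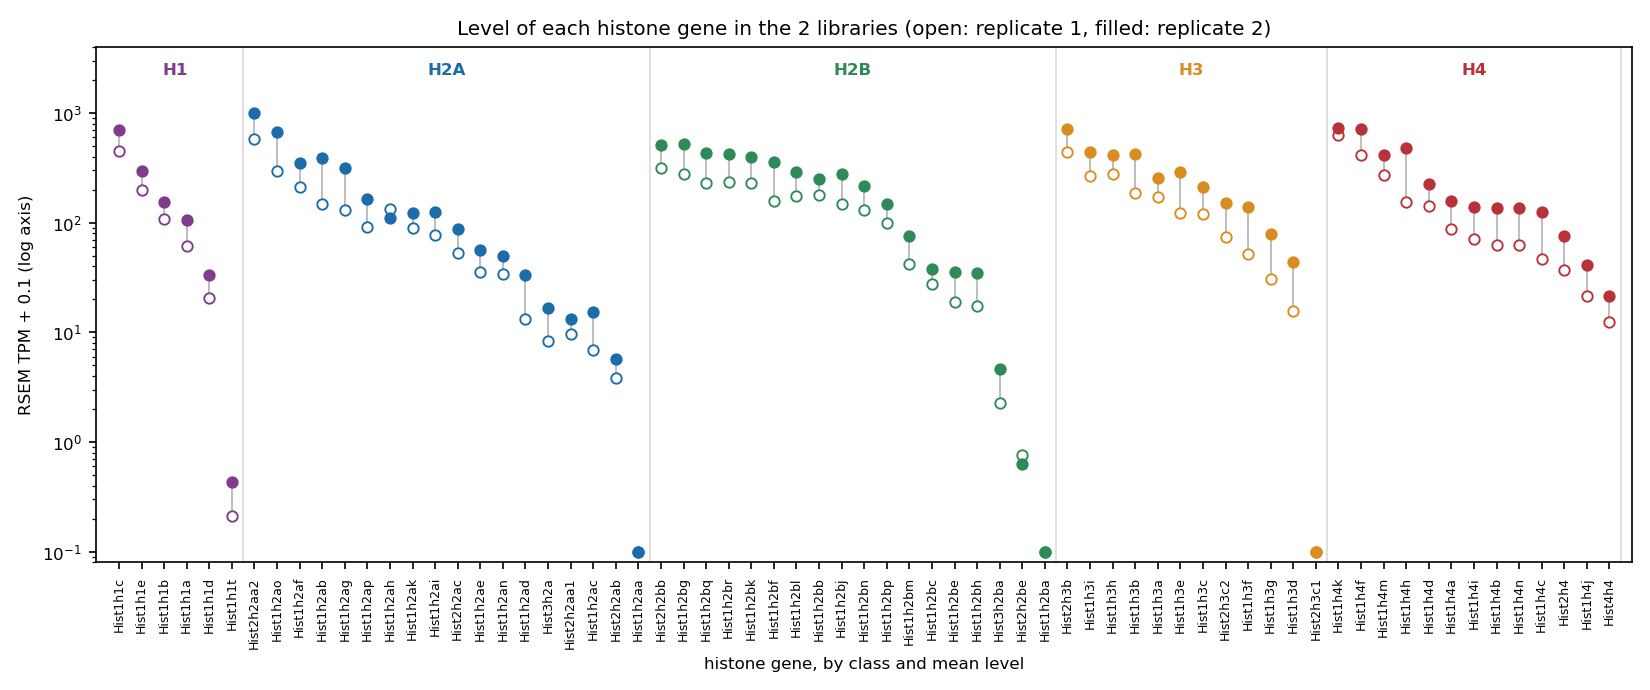
Level of each of the 67 histone genes (RSEM TPM plus 0.1, log axis), grouped by class and ordered by mean level, with open points for replicate 1 and filled points for replicate 2 (where only a filled point is seen at the bottom, both libraries were at 0). Each class holds genes spread over more than a factor of 10. TPM is higher in replicate 2 for 62 of 67 genes, but protein-coding genes together took 33.0% and 45.6% of the TPM of all annotated genes. This count therefore also holds the shift in scale between the libraries.

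Linker histones bind the DNA that enters and leaves the nucleosome. Hist1h1c (chr13:23738808-23740367, plus strand) was the highest of them at 448.99 and 693.39 TPM in replicates 1 and 2, with 14300 and 18803 counts. Hist1h1e followed at 198.75 and 295.88 TPM, and Hist1h1b at 108.58 and 154.07 TPM. These 3 genes held 90.2% and 89.1% of the summed H1 level. The testis-specific Hist1h1t was the lowest, with 2 and 5 counts (0.11 and 0.33 TPM). Hist1h1a and Hist1h1d lay between, so all H1 genes other than the testis form were measured in both libraries. H1 counts were also the least shared with other genes, and the posterior SD (the program's own uncertainty in dividing reads) of the 5 with over 10 counts was at most 0.290% of the count.

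H2A and H2B pair as dimers on the outside of the nucleosome. Among H2A genes, Hist2h2aa2 (chr3:96239749-96240276, minus strand) was the highest by RSEM at 578.19 and 1011.37 TPM, then Hist1h2ao at 297.64 and 677.9 TPM and Hist1h2af at 213.8 and 353.8 TPM. Among H2B genes, Hist2h2bb (chr3:96269752-96270132, plus strand) had 314.28 and 512.35 TPM by RSEM, Hist1h2bg had 277.77 and 522.24 TPM and Hist1h2bq had 231.93 and 427.94 TPM. None of the stretches of Hist2h2aa2 is unique, and by kallisto Hist1h2ao had 0 and 6.87 TPM. The highest H2A gene by kallisto was Hist1h2ai, at 605.3 and 984.8 TPM. Hist1h2bq had a posterior SD of 45.1% and 37.3% of the count, and its copy Hist1h2br had 232.62 and 422.0 TPM by RSEM. The level was spread over more genes in H2B than in the other classes, since its 3 highest genes held 36.0% and 36.4% of the class sum, against 49.8% to 90.2% elsewhere. The lowest of each class, Hist1h2aa and Hist1h2ba, which are known from testis, had 0 counts in both libraries. A count of 0 allows up to 3 counts per library, for counting error only. By the kallisto table Hist1h2aa had 0.65 and 0.59 TPM and Hist1h2ba 0 and 3.48 TPM. The 2 genes lie 306 nt apart in the fourth stretch of the chromosome 13 cluster, the one stretch with no read in the gene table.

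H3 and H4 form the tetramer at the centre of the nucleosome. Hist2h3b (chr3:96268654-96269141, plus strand) was the highest H3 gene at 445.91 and 715.45 TPM, followed by Hist1h3i at 269.31 and 443.49 TPM and Hist1h3h at 279.7 and 418.14 TPM. Hist2h3c1 was at 0 in both libraries, yet it shares all its 100-nt stretches with other genes and its coding sequence with Hist2h3c2 (74.04 and 152.01 TPM), so the 0 does not tell whether it was transcribed. Grouped by protein, the 8 H3 genes that encode the same form held 57.4% and 62.3% of the summed H3 TPM, and the 4 genes of the other form (Hist1h3a, Hist1h3g, Hist1h3h and Hist1h3i) held 42.6% and 37.7%. Of the H4 genes, Hist1h4k (chr13:21750194-21750505, minus strand) had 635.06 and 726.49 TPM, Hist1h4f 418.17 and 719.81 TPM and Hist1h4m 275.11 and 411.76 TPM. Hist4h4 was the lowest H4 gene by RSEM at 12.24 and 21.22 TPM, so by RSEM every H4 gene was above 10 TPM in both libraries. By kallisto, Hist1h4n (2.54 TPM) and Hist1h4j (8.95 TPM) were below 10 TPM in replicate 1.

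Class sums were compared as shares of the summed TPM. H2B took 26.0% ± 0.122 (SD, n = 2), H4 22.5% ± 0.631, H2A 22.4% ± 0.926, H3 20.3% ± 0.395 and H1 8.90% ± 0.813. The share of H2B was above and that of H1 below the 3 others by more than their spread between the libraries, and H4 and H2A did not differ beyond their spread. Within the nucleosome's partners, the H2A sum was 0.862 times the H2B sum on average, and the H3 sum 0.903 times the H4 sum. With 2 libraries no exact test can reach a small p, so these differences are given against the spread alone.

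Class medians followed another order than class sums. The median gene of H2B had 187.4 TPM as the mean of both libraries, H3 177.7, H1 107.5, H4 104.4 and H2A 81.9. On log2(TPM + 0.1) the median of H2B exceeded that of H2A by 1.19 ± 0.094 (SD, n = 2). The H1 class, with 6 genes, had a middling median and the smallest sum. The order of classes moved with the quantification. By the second table, which has the column layout of kallisto and was summed from transcripts to genes, H2A had the largest share at 27.6% ± 3.21, H2B had 23.6% ± 0.269, H4 22.2% ± 2.38, H3 19.5% ± 0.597 and H1 7.15% ± 0.499, and the median of H2B exceeded that of H2A by 0.60 ± 0.387. The highest class median was then that of H3 and the lowest that of H4, 1.64 ± 0.731 apart on the log2 scale.

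The place of the stem-loop bears on these levels, since TPM divides by the whole annotated length. With the length taken to 5 nt after the stem-loop for the 44 genes that hold one, and all counts kept, levels changed by factors of 0.993 to 8.55. Hist4h4 went from 12.24 and 21.22 TPM to 104.7 and 181.5 on that scale, and Hist1h4d from 141.68 and 225.53 to 538.7 and 857.5. The H1 share became 14.8% ± 1.43 and the H4 share 25.5% ± 0.214, now the largest, and the H2A share 18.7% ± 0.777. Where along the transcript the reads lie is not in the tables used here, so the true length was not tested. Genes with no annotated sequence after the stop codon, such as Hist1h4k at 312 nt, may instead be annotated too short. Reads from their unannotated ends would not be counted, and the effect on their level was not tested.

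The 2 quantifications were then compared gene by gene among genes with a mean of at least 1 TPM by either, calling a gene apart where they differed by more than 2-fold and both libraries had the same direction. Of 63 histone genes compared, 8 (12.7%) were apart. Over all 13328 genes compared the share was 13.2%, and over the 10370 protein-coding genes it was 4.19%. The histone share is thus close to that of all genes and above that of protein-coding genes. The size of the difference, apart or not, had a median of 0.48 and 0.45 in log2 units for the histone genes in the 2 libraries, against 0.17 and 0.16 for protein-coding genes. Spearman correlations between the quantifications were 0.757 over 65 histone genes and 0.957 over 16051 protein-coding genes in replicate 1, and 0.749 and 0.963 in replicate 2.

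Of the genes apart, 5 were H2A genes and 3 were H4 genes. Hist1h2ao had 297.64 and 677.9 TPM by RSEM but 0 and 6.87 TPM by kallisto, whereas its copy Hist1h2ap had 90.53 and 165.4 TPM by RSEM but 206.2 and 588.4 TPM by kallisto. The RSEM level of Hist2h2aa1 was 9.53 and 13.1 TPM and its kallisto level 360.2 and 394.4 TPM. Its copy Hist2h2aa2 had 578.19 and 1011.37 TPM by RSEM against 222.7 and 903.6 by kallisto. The copy with the higher level was thus opposite in both libraries for Hist1h2ao and Hist1h2ap, and in replicate 1 alone for Hist2h2aa1 and Hist2h2aa2. Hist1h2ai had 77.83 and 125.58 TPM by RSEM and 605.3 and 984.8 by kallisto, and Hist1h2ad had 13.15 and 33.49 against 125.6 and 155.6. Of their stretches 11.6% and 36.4% are unique.

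In H4, Hist1h4n had 62.03 and 135.23 TPM by RSEM and 2.54 and 24.3 by kallisto, with its copy Hist1h4m at 275.11 and 411.76 against 415.0 and 587.4. Hist1h4h had 155.87 and 478.32 TPM by RSEM but 381.2 and 1183.5 by kallisto, and Hist1h4i had 70.61 and 138.09 against 27.5 and 56.4. These last 2 genes are mostly unique (61.5% and 84.9% of stretches), so a near-identical copy is not common to all 8. Summed over copies, Hist2h2aa1 with Hist2h2aa2 had 587.7 and 1024.5 TPM by RSEM against 582.9 and 1298.1 by kallisto, and Hist1h4m with Hist1h4n had 337.1 and 547.0 against 417.6 and 611.7. The sum of Hist1h2ao and Hist1h2ap still differed, at 388.2 and 843.3 against 206.2 and 595.3 TPM. With the 5 identical pairs each summed to 1 value, 4 of 59 values were apart.

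**Figure D2:**
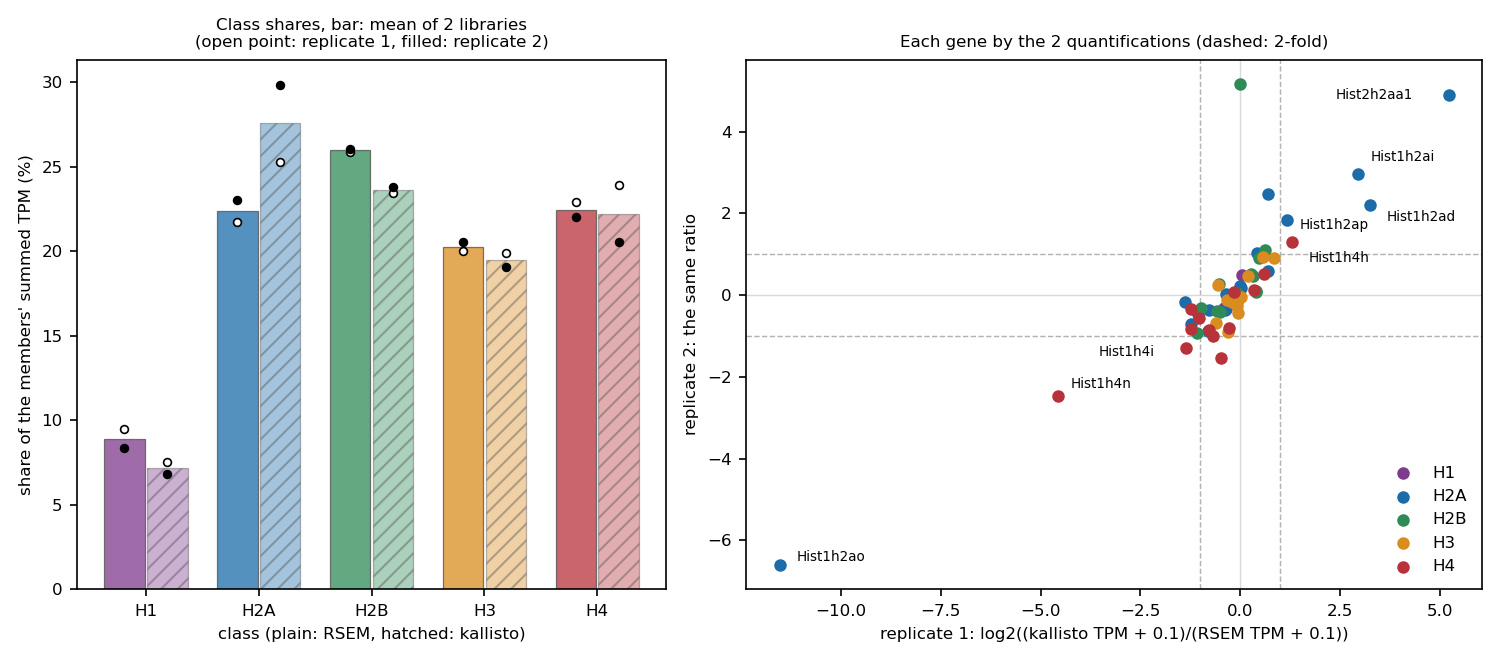
Left, the share of the summed TPM taken by each class (mean of 2 libraries as bars from 0, single libraries as points), by RSEM (plain) and kallisto (hatched). Right, log2 ratio of kallisto to RSEM TPM, each plus 0.1, in replicate 1 and replicate 2 for 63 genes, with dashed lines at 2-fold and the 8 genes apart named, which are all H2A or H4 genes.

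Among the 39 compared genes with at least 50% unique stretches 2 were apart, and among the 24 with fewer 6 were apart. Over genes with at least 10 counts in a library, the posterior SD of the RSEM count was taken as a share of the count. Its median was 1.70% and 1.21% among the 42 mostly unique genes and 5.03% and 3.55% among the other 25. The largest was 54.4% in Hist2h2aa1 (replicate 1). Over 63 genes the unique share and the posterior SD had a Spearman correlation of -0.682 in replicate 1 and -0.683 in replicate 2, while the unique share and the size of the difference between quantifications had -0.300 and -0.104. Both are descriptions over genes of the same libraries. The Hist2h2aa2 count had a posterior SD of 1.06% and 0.58% although none of its stretches is unique.

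**Figure D3:**
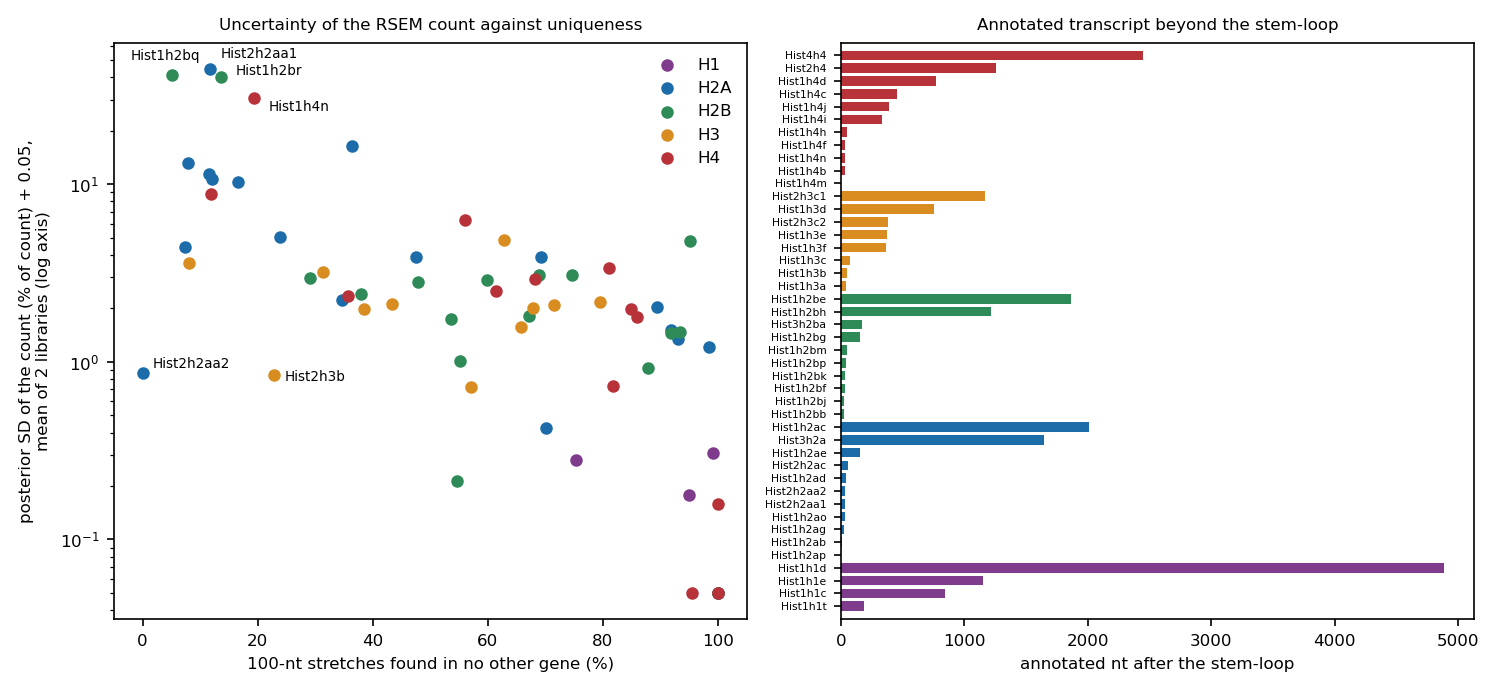
Left, the posterior SD of the RSEM count (percent of the count plus 0.05, mean of 2 libraries, log axis) against the percent of 100-nt stretches found in no other gene, by class. Points fall from the upper left to the lower right, with Hist2h2aa2 and Hist2h3b low at the left. Right, the annotated length after the stem-loop for the 44 genes that hold one, from 3 to 4884 nt.

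Isoforms added a second disagreement within genes. Of the histone genes, 5 have more than 1 annotated transcript. Hist1h2be-201 held 80.8% and 87.4% of its gene's TPM by RSEM, but Hist1h2be-202 held 94.9% and 94.6% by kallisto. In Hist1h2bp the 201 transcript held 98.9% and 99.3% by RSEM and the 202 transcript 72.3% and 79.3% by kallisto. In Hist1h2bq and Hist1h2br, 1 transcript of 381 nt held 97.5% to 99.7% by both programs, and it had the same value in the 2 genes (229.42 TPM in replicate 1 and 417.04 in replicate 2 by RSEM). The fifth gene, Hist2h3c1, was at 0.

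The libraries were compared by an exact two-sided binomial test per gene on rounded expected counts, scaled with TMM and adjusted by Benjamini-Hochberg over 15118 genes with at least 10 counts together. Of the 63 histone genes tested, 56 were higher in replicate 2, 1 was higher in replicate 1 and 6 passed in neither direction (adjusted p threshold 0.05). Over all genes tested, 17.0% were higher in replicate 2 and 15.0% higher in replicate 1. The median log2 ratio of replicate 1 to replicate 2 was -0.56 for the histone genes, -0.001 for all genes and -0.02 for protein-coding genes. By class the medians were -0.38 for H1, -0.48 for H2A, -0.58 for H2B, -0.79 for H3 and -0.71 for H4. Summed counts, scaled the same way, were 1.29 times higher in replicate 2 for H1, 1.58 for H2A, 1.49 for H2B, 1.61 for H3 and 1.497 for H4.

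Scaled by ERCC totals, the median of all genes shifted by -0.74, 62 histone genes were higher in replicate 2 beside 73.8% of all genes, and Hist1h2ah and Hist1h4k turned to that side. By kallisto counts 52 of 64 histone genes were higher in replicate 2 and 4 higher in replicate 1 (Hist2h2aa1, Hist1h3h, Hist1h4f and Hist1h4k), against 17.7% and 13.4% of all genes under those counts. The binomial test allows only for counting error. With the spread between the libraries over all genes included, by edgeR's exact negative binomial test with a common dispersion, 4 of the 63 genes passed: Hist1h4h (adjusted p = 0.00765), Hist1h3d (0.0287), Hist1h3f (0.0375) and Hist1h4c (0.0383). Hist1h4h had 1258 counts in replicate 1 and 3287 in replicate 2, 2.58 times as many after scaling. Hist1h3d had 389.1 and 930.65 counts (2.36 times), Hist1h4c 731.7 and 1683.7 (2.27 times) and Hist1h3f 1313 and 3006 (2.26 times). Over all 15118 genes the negative binomial test called 160 higher in replicate 2 and 87 higher in replicate 1. All 4 histone genes lie in the third chromosome 13 stretch, which holds 28 of the 63 genes tested. Each holds over 60% unique sequence, and 42 of the 67 histone genes hold at least 50%.

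Called at least 2-fold higher in replicate 2 were 8 genes, against 2.86% of all genes tested. Beside those 4 they were Hist1h2ab (1212 and 2690 counts), Hist1h3g (286.2 and 631.9), Hist1h2ad (135.4 and 293.6) and Hist1h2ag (1090 and 2276). By class these are 3 H2A, 3 H3 and 2 H4 genes. By kallisto counts 19 genes passed at that size (7 H2A, 3 H2B, 4 H3 and 5 H4) against 2.72% of all genes, and under ERCC totals 55 passed against 22.2%. The ratio of Hist1h2ad was 0.0331 by kallisto counts, where the gene did not pass. Hist1h2ah was the exception, with 878.4 and 625.7 counts and a log2 ratio of 0.50 (adjusted p = 2.59e-10, exact binomial test). Its posterior SD was 8.99% and 12.3% of the count, and by kallisto counts it was higher in replicate 2, with a log2 ratio of -1.16. Hist1h4k, the highest H4 gene, had 2937 and 2861 counts and a log2 ratio of 0.05, with a 95% counting interval of -0.02 to 0.13. Of the 5 H1 genes tested, Hist1h1a had the lowest ratio at -0.55, and Hist1h1t, with 2 and 5 counts, was not tested.

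Transcript length moved with this difference. Among protein-coding genes other than the histone genes, 398 with annotated transcripts under 700 nt had a median log2 ratio of -0.33, and 44.0% of them were higher in replicate 2 and 3.02% in replicate 1. For the 11589 genes of 700 nt or more the median was -0.02, with 17.7% and 14.2%. Among genes with at least 500 counts together, 75.8% of 161 short genes and 24.6% of 6157 longer genes were higher in replicate 2, with medians of -0.41 and -0.01. The 5 H1 genes tested have annotated lengths of 741 to 7425 nt and so belong with the longer genes. Their median was -0.38, beside -0.02 for the longer genes. All 398 short genes had -0.33, and the 161 with at least 500 counts had -0.41. The 41 histone genes under 700 nt had a median of -0.54, and the 22 of 700 nt or more had -0.69, though many of these carry annotated sequence beyond the stem-loop. Length as a part of the difference between the libraries was not tested further.

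**Figure D4:**
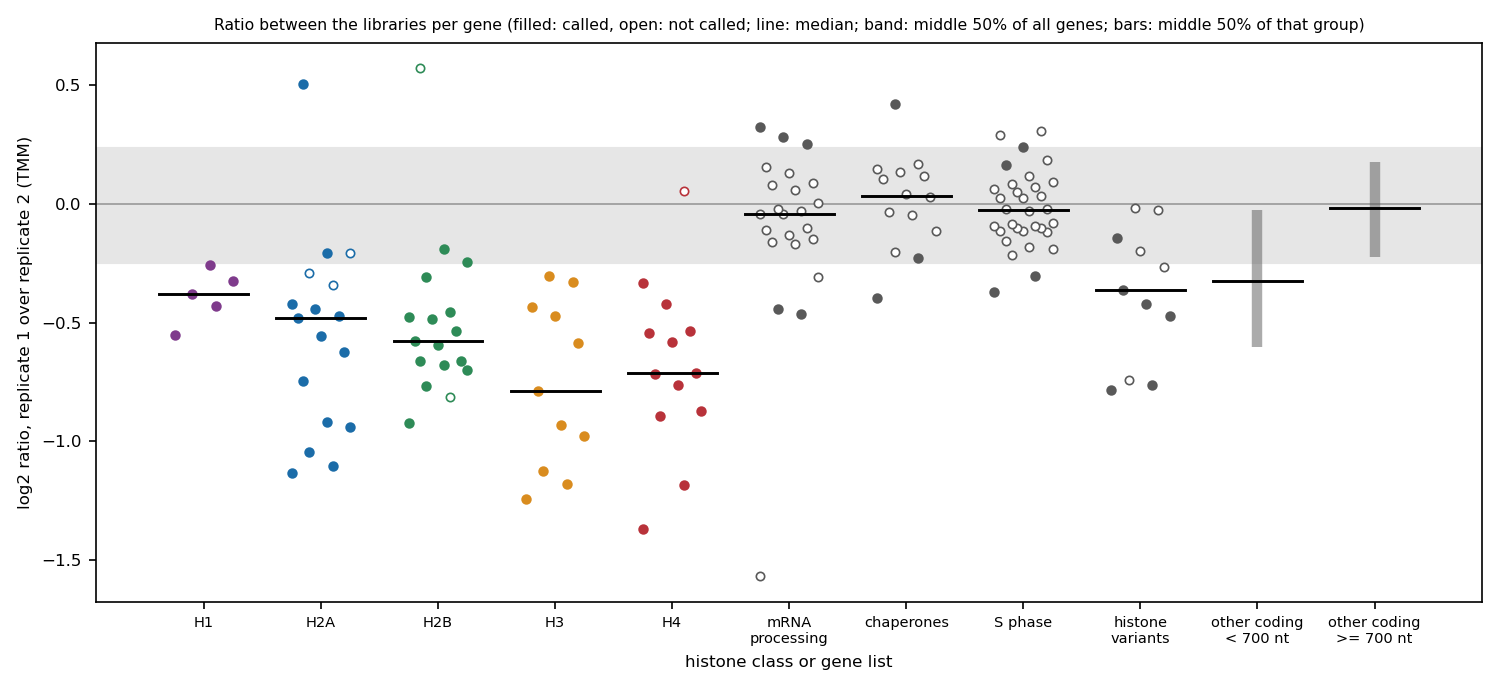
Log2 ratio of replicate 1 to replicate 2 (TMM-scaled counts) for each tested gene of the 5 histone classes and 4 gene lists, filled where called by the exact binomial test, with the median as a line. The grey band covers the middle 50% of all 15118 genes, and the 2 bars at the right cover the middle 50% of other protein-coding genes under 700 nt and of 700 nt or more. Class medians run from -0.38 to -0.79, beside a median of -0.33 for all other short genes (-0.41 for those with at least 500 counts). The other genes of 700 nt or more had a median of -0.02.

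Genes that act on histone genes and their mRNAs mostly did not share the ratio of the histone genes. Of 23 tested genes for transcription, processing and decay of histone mRNA, 18 passed in neither direction, with a median log2 ratio of -0.04. The 2 higher in replicate 2 were Lsm10 (log2 ratio -0.46) and Snrpg (-0.44). The 3 higher in replicate 1 were Hinfp (0.32), Npat and Tut7. Slbp, which binds the stem-loop, had 31.18 and 37.44 TPM and 966 and 993 counts. Npat, the coactivator of histone gene transcription in S phase, had 6.71 and 7.59 TPM and was higher in replicate 1 by a log2 ratio of 0.28 (adjusted p = 0.00167, exact binomial test). Tut7, a uridylyl transferase that marks histone mRNA for decay, was the highest of the list at 220.03 and 244.09 TPM with a ratio of 0.25, and Srrt and Snrpb followed at 67.57 and 80.31 TPM and at 40.37 and 51.27 TPM. The U7 RNA gene Rnu7 was at 0 in both libraries. It spans only chr6:124741225-124741286, and so short a gene leaves little or no length in which reads can be counted. The 0 therefore does not tell whether it was transcribed.

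Of 32 S phase genes all had at least 1 TPM in both libraries, with medians of 14.9 and 16.8 TPM. The DNA clamp Pcna was the highest at 63.29 and 92.56 TPM, then the helicase subunits Mcm7 at 44.61 and 45.53 TPM and Mcm3 at 41.52 and 44.35 TPM. Between the libraries 2 of the 32 were higher in replicate 2 (Pcna, log2 ratio -0.37, and the cyclin Ccna2, -0.30), 2 were higher in replicate 1 (Mcm3 and the polymerase gene Pola1) and the median was -0.03. The 14 histone chaperones, led by Rbbp4 at 39.62 and 49.17 TPM, had a median of 0.04, with 2 higher in replicate 2 (Asf1b and Ssrp1) and 1 in replicate 1 (Hira). No gene of these 3 lists was called at a 2-fold difference.

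Replication-independent variants are made outside S phase as well and take the place of the S phase histones in chromatin. Of the 11 tested, 6 were higher in replicate 2 and none was higher in replicate 1, with a median log2 ratio of -0.36. H3f3b, one of 2 genes for H3.3, had 1088.32 and 1788.62 TPM, above every replication-dependent gene in both libraries, and its ratio was -0.47. H3f3a had 342.14 and 709.32 TPM with a ratio of -0.78, and H2afz had 153.23 and 182.47 TPM and passed in neither direction.

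Markers of other cell types are given as summed counts, since TPM is not on 1 scale in libraries whose protein-coding shares were 33.0% and 45.6%, and no test was run on them. The 6 B cell markers summed to 1836 and 3688 counts (55.63 and 126.59 TPM, mostly from Ighm), the 5 erythroid markers to 582.2 and 1357 counts (45.37 and 119.02 TPM) and the 5 T cell markers to 596 and 785 counts (32.33 and 53.85 TPM, almost all from Cd3d). The 5 monocyte and macrophage markers summed to 5515 and 6160 counts (108.24 and 144.97 TPM), and the 5 stem and progenitor markers to 781.2 and 693.7 counts (10.16 and 10.96 TPM). The 10 neutrophil markers summed to 563698 and 856565 counts (37165 and 74164 TPM). The part of other cells in the histone levels was not tested.

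Position and promoters were described last. Pairs of histone genes that start back to back within 1000 nt numbered 13, of which 12 joined an H2A to an H2B gene and 1 joined Hist1h2bh to Hist1h3f, with 176 to 660 nt between starts. One pair, Hist1h2ba with Hist1h2aa, was at 0. Of the 12 others, 3 had levels within 2-fold in both libraries: Hist1h2ak with Hist1h2bn, Hist1h2bq with Hist1h2ao, and Hist1h2ag with Hist1h2bj (129.8 and 318.27 TPM against 148.75 and 279.54 TPM). These are RSEM levels, and Hist1h2bq with Hist1h2ao had 304.4 and 451.8 against 0 and 6.87 TPM by kallisto, with a posterior SD of 45.1% and 37.3% on the RSEM count of Hist1h2bq. The partners farthest apart were Hist2h2ac at 52.71 and 86.76 TPM and Hist2h2be at 0.67 and 0.53 TPM. Genes that share a start region thus had levels from within 2-fold of each other to 6.10 and 7.11 apart on log2(TPM + 0.1).

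Promoters were taken from RefSeq (GRCm38.p6), which matched 62 of the 67 genes, and 4 motifs were searched on both strands in the 250 bases before the start. The 4 were chosen as known histone promoter elements: the TATA box TATAAA, the CCAAT box, the octamer ATTTGCAT and the H1 box AAACACA. The CCAAT box stood in all 6 H1, 18 H2A and 16 H2B promoters, in 8 of 10 H3 and 3 of 12 H4 promoters, against 33.8% of all 32851 RefSeq promoters. The octamer stood in 7 of 18 H2A and 6 of 16 H2B promoters and in none of the others, against 1.60% of all. Back-to-back partners start as little as 176 nt apart, so the same site can count for both, as the octamer of Hist1h2ae and Hist1h2bg does. The H2A and H2B counts of each motif are therefore not separate. AAACACA stood in 5 of 6 H1 promoters, 2 H2A and 2 H2B, against 6.25% of all, and TATAAA in 29 of 62, against 12.4%. The 150 bases before the start are shown for the highest H1 gene, an H2A gene with all 4 motifs and the H4 gene with the lowest ratio between the libraries, each on its own strand with motifs in capitals.
Hist1h1c: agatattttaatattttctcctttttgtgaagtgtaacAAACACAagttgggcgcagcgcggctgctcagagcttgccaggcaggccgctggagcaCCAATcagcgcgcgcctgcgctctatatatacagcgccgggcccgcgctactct
Hist1h2ab: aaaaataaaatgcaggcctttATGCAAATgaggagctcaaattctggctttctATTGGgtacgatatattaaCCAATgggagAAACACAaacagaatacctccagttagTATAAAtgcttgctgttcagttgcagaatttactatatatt
Hist1h4h: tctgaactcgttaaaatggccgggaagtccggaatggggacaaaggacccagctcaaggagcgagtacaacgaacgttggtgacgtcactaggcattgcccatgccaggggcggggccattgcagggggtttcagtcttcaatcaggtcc
The Hist1h1c promoter covers chr13:23738657-23738806 and held an H1 box and a CCAAT box. That of Hist1h2ab covers chr13:23750938-23751087 and held the octamer, 2 CCAAT boxes on opposite strands, the AAACACA letters and a TATA box. That of Hist1h4h covers chr13:23530894-23531043 and held none of the 4 in the bases shown. A match is a description of letters and not a bound site.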

How the data were processed

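Total RNA of spleen neutrophils was sequenced in 2 libraries of 1 group, so no contrast between conditions exists. Per the file headers, the authors deposited a gene table and a transcript table with the column layout of RSEM (expected counts, TPM and FPKM, with posterior SDs of the counts) and a transcript table with the column layout of kallisto (estimated counts and TPM). They are called RSEM and kallisto here. Assembly mm10 and annotation M21 are named in the deposited notes, and neither program versions nor an aligner is given in the sources used here. Deposited TPM covers all entries, tRNA and spike-ins included.

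Kallisto values were summed per gene by gene ID. Expected counts were rounded for the exact binomial test (SciPy 1.17.1), scaled by TMM from edgeR 4.0.16 in R 4.3.3, with at least 10 counts together and 0.5 added for log2 ratios. That test replaces edgeR's quasi-likelihood test, which needs a contrast with replicates. It was tested on simulated data with counting error only, so that check does not cover the spread between libraries. A pseudocount of 0.1 was added to TPM on log scales. Alternatives used size factors of DESeq2 1.42.0, total counts, ERCC totals, other count and level minimums, pseudocounts and folds, FPKM, kallisto values, a negative binomial test and each library alone. Sequence features came from the M21 transcripts. Intervals and floors cover counting error only.

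Named genes were the 3 highest and the lowest of each class, those called at least 2-fold between libraries, those apart between quantifications, those with several isoforms, the testis genes and, of the lists, the 3 highest. A few others, such as Slbp, Npat, Hist1h2ah and Hist1h4k, were named after their values were seen. Members, lists and rules were chosen with earlier results of these data known.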

Additional observations from a re-analysis of the deposited data

How the results depend on the processing

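No paired analysis was possible because the libraries form 1 group. The share of protein-coding TPM and the number of genes at 1 TPM kept their value within the spread or within 1.5 times under every alternative run. With single libraries the share was 2.69% to 3.39% and the number 62 in each. With 2 libraries each always lies within the spread around their mean, so the single-library shares say nothing on stability.

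The class shares were less stable. Under expected counts H1 took 26.4%, H2A 17.1%, H2B 19.6%, H3 19.1% and H4 17.8%. Under kallisto TPM H1 took 7.15%, H2A 27.6%, H2B 23.6% and H3 19.5%. Without the highest gene of each class H1 took 5.54%, H2A 21.3%, H2B 30.3% and H3 20.7%. With the length to the stem-loop, chosen after seeing the data, H1 took 14.8%, H2A 18.7%, H2B 22.7%, H3 18.3% and H4 25.5%. Single libraries gave 8.33% to 9.48% for H1, 21.7% to 23.0% for H2A, 25.9% to 26.1% for H2B, 20.0% to 20.5% for H3 and 22.0% to 22.9% for H4. The difference of the H2B and H2A medians became 0.60 under kallisto TPM, where H3 was the highest and H4 the lowest class, and was 1.12 to 1.26 in single libraries.

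Between the libraries, ERCC totals gave a median log2 ratio of -1.30 with 0 genes higher in replicate 1, kallisto counts gave 4 higher in replicate 1, and the negative binomial test gave 4 higher in replicate 2 and 0 in replicate 1. Over all 15118 genes that test called 160 in the direction of replicate 2 and 87 in the other. Among genes with at least 50% unique stretches, chosen after seeing the data, 36 of 39 were higher in replicate 2 and 0 in replicate 1. The direction turned under ERCC totals for Hist1h4k (-0.69) and Hist1h2ah (-0.24), and under kallisto counts for Hist2h2aa1 (0.21), Hist1h3h (0.40), Hist1h3i (0.0325), Hist1h2ah (-1.16), Hist1h4f (0.64) and Hist1h2ad (0.0331). This comparison cannot leave out a library. The number of genes apart between quantifications was 19 at 1.5-fold and 5 at 4-fold, 13 to 15 in single libraries, 2 among mostly unique genes and 4 with identical coding sequences summed, the last 2 chosen after seeing the data. Apart from construction (fewer genes, another fold or length), the cause of these moves was not tested. Over genes with at least 10 counts in a library, the posterior SD had medians of 1.70% and 1.21% of the count in mostly unique genes and 5.03% and 3.55% in the others.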
